A study of Mus musculus with 6 samples.

Results

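Heterotrimeric G proteins carry signals from seven-pass receptors into the cell. The alpha subunit binds GTP when a receptor is activated, and then both it and the beta-gamma dimer act on effectors such as adenylyl cyclases, phospholipase C and potassium channels. Regulator of G protein signalling (RGS) proteins end the signal by speeding up GTP hydrolysis on alpha subunits. Most beta subunits work only as a pair with a gamma subunit, and in neurons the pairing of a particular gamma subunit with alpha and beta subunits contributes to which receptors and effectors a cell can use.

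The genes were taken by symbol, as the alpha subunit genes named Gna followed by a recognised suffix, the beta genes Gnb1 to Gnb5, the gamma genes beginning Gng and the numbered Rgs genes. This gave 51 of the 19938 genes that had a probe set of their own, namely 14 alpha, 5 beta, 12 gamma and 20 RGS genes. Gnas, the gene of the stimulatory alpha subunit, was left out because its probe set names several genes, and Rgs10 was not analysed here because no probe set carried its symbol in the annotation used. Where a gene had several probe sets, the brightest on average stood for it, which mattered only for Rgs3.

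The samples were mouse N2A cells, an established neuroblastoma line, transfected transiently with a short hairpin vector and lysed 3 days later. There were 3 control arrays, from cells given a non-targeting vector, and 3 Pax6 knockdown arrays, transfected with the vector whose hairpin targets Pax6. Each well received 1.5 µg of vector in which a U6 promoter drives the hairpin and a CMV promoter drives eGFP, and no selection step for the array samples is given in the sources used here, so untransfected cells may be part of each sample. The design describes the 3 samples of each group as biological replicates. Each p-value sets the difference between groups against the spread between such samples, estimated with the spread of all tested genes taken into account. Values are log2 summaries per probe set, differences are knockdown minus control, and because probes differ in brightness no gene's level is set against another's.

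Pax6, the targeted gene, had log2 values of 8.79, 8.82 and 8.81 in the controls and 8.48, 8.30 and 8.50 in the knockdowns, a difference of -0.38 (SE 0.071, limma adjusted p = 0.0382). Of 13 measured neuroblastoma marker genes, 11 exceeded the median of all probe sets (the array-wide median) on all 6 arrays, among them Phox2a, Hand2, Gata2, Gata3, Th, Dbh and Tubb3, while the neurofilament genes Nefl and Nefm lay below it on all 6. All 5 immune marker genes lay below that median on all 6 arrays, as did 3 of 4 endothelial genes, 1 of 3 Schwann cell genes and 1 of 5 fibroblast genes. Above it on all 6 arrays were 2 of 3 Schwann cell genes (Sox10 and Erbb3) and 3 of 5 fibroblast genes (Col1a1, Col1a2 and Col3a1). The endothelial gene Pecam1 was above it on all 6 too. The mean of the neuroblastoma list ran from 10.60 to 10.67 in the controls and from 10.42 to 10.49 in the knockdowns. Of its 11 tested members 7 had a negative difference and 4 a positive one. The 4 called lower, against 3.88% of all tested genes, were Dbh, Isl1, Chga and Chgb. Gata3 passed too under the replicate block (limma adjusted p = 0.0703). Dbh had by far the largest difference, -1.08, while Tubb3 (0.12), Phox2a (0.05), Stmn2 (0.03) and Gata2 (0.008) were above 0 and did not pass. Whether the shift in the list mean plays any part in the G protein values was not tested. In bulk RNA fewer cells of a type and less RNA per cell cannot be told apart.

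Testing was limited to genes whose value exceeded that median on 3 or more arrays, and 32 of the 51 genes passed, 10 alpha, 5 beta, 8 gamma and 9 RGS genes. At a false discovery rate (FDR) of 10% by limma, 4 of the 32 were higher in the knockdown, 0 were lower and 28 did not pass. The 4 that rose were the gamma genes Gng8, Gng3 and Gng4 and the beta gene Gnb5. In the background of all 11424 tested genes 6.67% were called. As shares of all tested genes, 2.79% were higher and 3.88% lower. No alpha and no RGS gene passed, with 2 of 10 alpha genes and 1 of 9 RGS genes under an unadjusted p of 0.05. At that unadjusted level there were 11 of 32 members (34.4%), against 18.8% of all tested genes. The members were chosen with earlier results of these data known, so these shares are descriptions and not tests of the set.

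**Figure D1:**
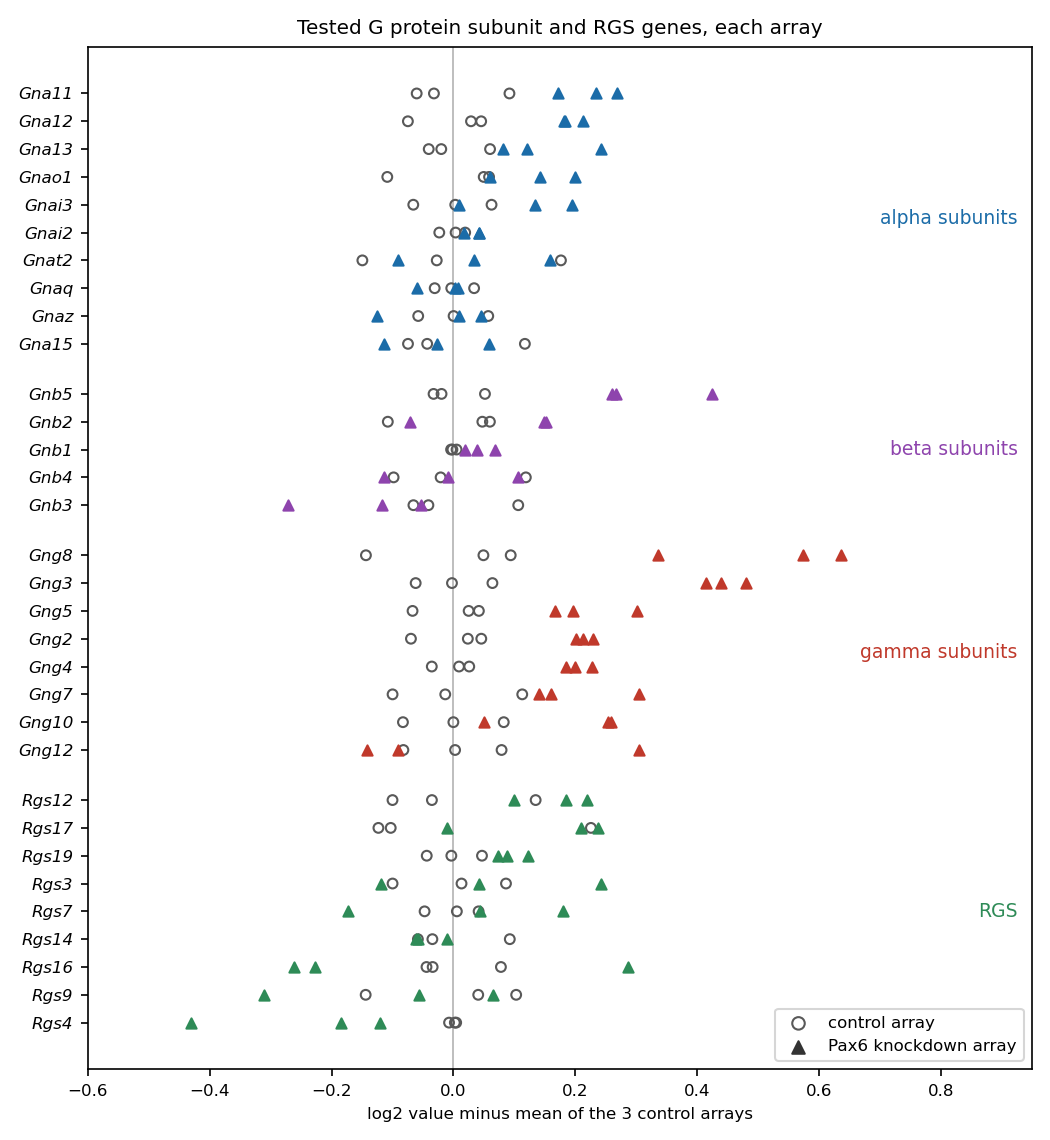
Deviation of every array from its gene's control mean, in log2 units (horizontal axis), for the 32 tested genes (vertical axis, by class); open circles are control arrays and triangles Pax6 knockdown arrays. The triangles of 6 of the 8 gamma genes lie wholly above the circles, while in the RGS genes they lie on both sides of 0.

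The sequences upstream of the 3 genes with the lowest adjusted p values are shown so that the windows before their start sites can be compared. They run from 250 bases before to 50 bases after the annotated start, from RefSeq on build GRCm38.p6, and are written 5′ to 3′ in the direction of transcription. Capitals mark matches on either strand to any of 5 motifs, none of which contains another. A GC box was searched as the letters GGGCGG and a CCAAT box by the letters in its name. The letters searched for a TATA box were TATAAA. A homeodomain core, the short sequence that many homeodomain proteins bind, was searched as TAATTA. The cyclic AMP response element, bound by CREB, was searched as TGACGTCA.
Gng8, chr7:16891536-16891835, plus strand: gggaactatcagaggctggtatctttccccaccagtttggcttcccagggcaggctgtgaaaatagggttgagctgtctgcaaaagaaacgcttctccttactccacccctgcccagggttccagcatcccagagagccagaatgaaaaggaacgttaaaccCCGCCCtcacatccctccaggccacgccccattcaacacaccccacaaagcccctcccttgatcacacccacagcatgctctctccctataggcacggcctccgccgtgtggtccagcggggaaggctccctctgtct
Gng3, chr19:8839197-8839496, minus strand: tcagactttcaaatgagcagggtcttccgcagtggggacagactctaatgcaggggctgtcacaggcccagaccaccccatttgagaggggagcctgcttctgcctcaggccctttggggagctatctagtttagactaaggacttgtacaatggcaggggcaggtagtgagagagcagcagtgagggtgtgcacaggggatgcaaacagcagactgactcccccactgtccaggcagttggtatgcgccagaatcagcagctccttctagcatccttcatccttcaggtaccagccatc
Gnb5, chr9:75306038-75306337, plus strand: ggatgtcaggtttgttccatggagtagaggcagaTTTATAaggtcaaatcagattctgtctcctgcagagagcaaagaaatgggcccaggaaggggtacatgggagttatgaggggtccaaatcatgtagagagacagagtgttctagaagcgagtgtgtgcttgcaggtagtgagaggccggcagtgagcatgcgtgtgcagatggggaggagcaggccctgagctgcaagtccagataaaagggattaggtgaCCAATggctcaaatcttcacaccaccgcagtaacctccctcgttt

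Gng3 holds none of the 5 motifs in this window, Gng8 holds 1 GC box and Gnb5 holds 1 TATA box and 1 CCAAT box, so the 3 windows share none of the 5. Of the 51 member genes 37 were matched to a window, with 47 windows in all, and the 11 members under an unadjusted p of 0.05 had 13. A GC box was in 24 of the 47 member windows and in 7 of the 13, against 35.7% of 32851 windows of that length. A CCAAT box was in 13 of the 47 and 6 of the 13 (37.4% of all windows), and a TATA box in 6 and 2 (13.6%). The homeodomain core was in 1 of the 47 and 0 of the 13 (5.29% of all windows), and the cyclic AMP response element in 0 and 0 (1.79%). These matches are descriptions of the letters and not binding sites.

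Gamma subunits anchor the beta-gamma dimer to the membrane through a lipid group on their C terminus. All 8 tested gamma genes had a positive difference, against 55.5% of all tested genes. Without a filter on low values the difference was positive in 10 of 12 gamma genes. The median of the 8 was 0.21, against 0.017 for all tested genes. The knockdown arrays lay wholly above the control arrays in 6 of them, against 13.9% of all tested genes. The array medians over these 8 genes, relative to the control mean of each gene, were 0.055, -0.064 and 0.013 in controls 1, 2 and 3 and 0.23, 0.20 and 0.24 in knockdowns 1, 2 and 3.

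Gng8, which encodes a gamma subunit known from olfactory and vomeronasal sensory neurons, had the largest difference of the 32. Its log2 values were 8.69, 8.46 and 8.65 in the controls and 9.17, 8.94 and 9.24 in the knockdowns. The lowest knockdown array lay above the highest control array, and the spread inside each group (SD 0.13 and 0.16, n = 3) was wider than for most other gamma genes. Gng8 rose by 0.52 (95% confidence interval 0.29 to 0.74), or 1.43-fold, with an SE of 0.099 and a limma adjusted p of 0.0408.

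Gng3, a gamma subunit gene of neurons, gave the lowest adjusted p of the members. It read 10.54, 10.41 and 10.47 in the controls and 10.95, 10.89 and 10.91 in the knockdowns. The groups stood well apart, since the knockdown arrays spanned a narrow range (SD 0.033, n = 3). Gng3 rose by 0.44 (95% confidence interval 0.30 to 0.59), or 1.36-fold, with an SE of 0.061 and a limma adjusted p of 0.0174.

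Gng4, another gamma gene expressed in the nervous system, was just inside the threshold. Its values were 10.08, 10.03 and 10.10 in the controls and 10.27, 10.26 and 10.30 in the knockdowns. The change was small and even across arrays, at 0.20 (SE 0.056, limma adjusted p = 0.0980), or 1.15-fold. Gng4 lost its call without a filter on low values (limma adjusted p = 0.237), with a 25th percentile filter (0.175), with a variance filter (0.381) and with each array centred on its median (0.142). Gng2, an abundant gamma gene of the brain, was just outside it with a difference of similar size, 0.21 (SE 0.059, limma adjusted p = 0.102). Gng2 read 10.79, 10.77 and 10.67 in the controls and 10.94, 10.96 and 10.97 in the knockdowns, so its groups did not overlap either. Given the SEs, no order between Gng4 and Gng2 can be read from their calls.

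Gng5, a widely expressed gamma gene, read 11.23, 11.12 and 11.21 in the controls and 11.36, 11.39 and 11.49 in the knockdowns. The groups were apart, with a difference of 0.22 (SE 0.065, limma adjusted p = 0.116). Gng7, known for its pairing with the olfactory-type stimulatory alpha subunit in striatum, read 8.06, 7.85 and 7.94 in the controls and 8.25, 8.09 and 8.11 in the knockdowns. Its difference was 0.20 (SE 0.078, limma adjusted p = 0.215), and control replicate 1 lay only just below the lowest knockdown array. Gng10 read 9.48, 9.31 and 9.39 in the controls and 9.65, 9.44 and 9.65 in the knockdowns, and here the groups overlapped through control replicate 1 and knockdown replicate 2 (0.19, SE 0.080, limma adjusted p = 0.260).

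Gng12 was the gamma gene that stood apart from this pattern. It read 7.61, 7.69 and 7.77 in the controls and 7.55, 7.99 and 7.598 in the knockdowns, so that knockdown replicate 2 was high and the other knockdown arrays were at or below the controls. Its difference was 0.02 (95% confidence interval -0.25 to 0.30), and it lay above the array-wide median on 5 of 6 arrays, the fewest of the tested gamma genes. The 4 gamma genes that were not tested were Gng11, Gng13, Gngt1 and Gngt2, all below the median on every array. Gngt1, Gng11 and Gngt2 encode the gamma subunits that are farnesylated rather than geranylgeranylated, and Gngt1 and Gngt2 belong to rod and cone photoreceptors. Gngt2 read 7.10, 7.02 and 6.98 in the controls and 6.78, 6.97 and 6.76 in the knockdowns. Its knockdown arrays lay wholly below its controls, in a range where the array-wide median filter allowed no test.

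**Figure D2:**
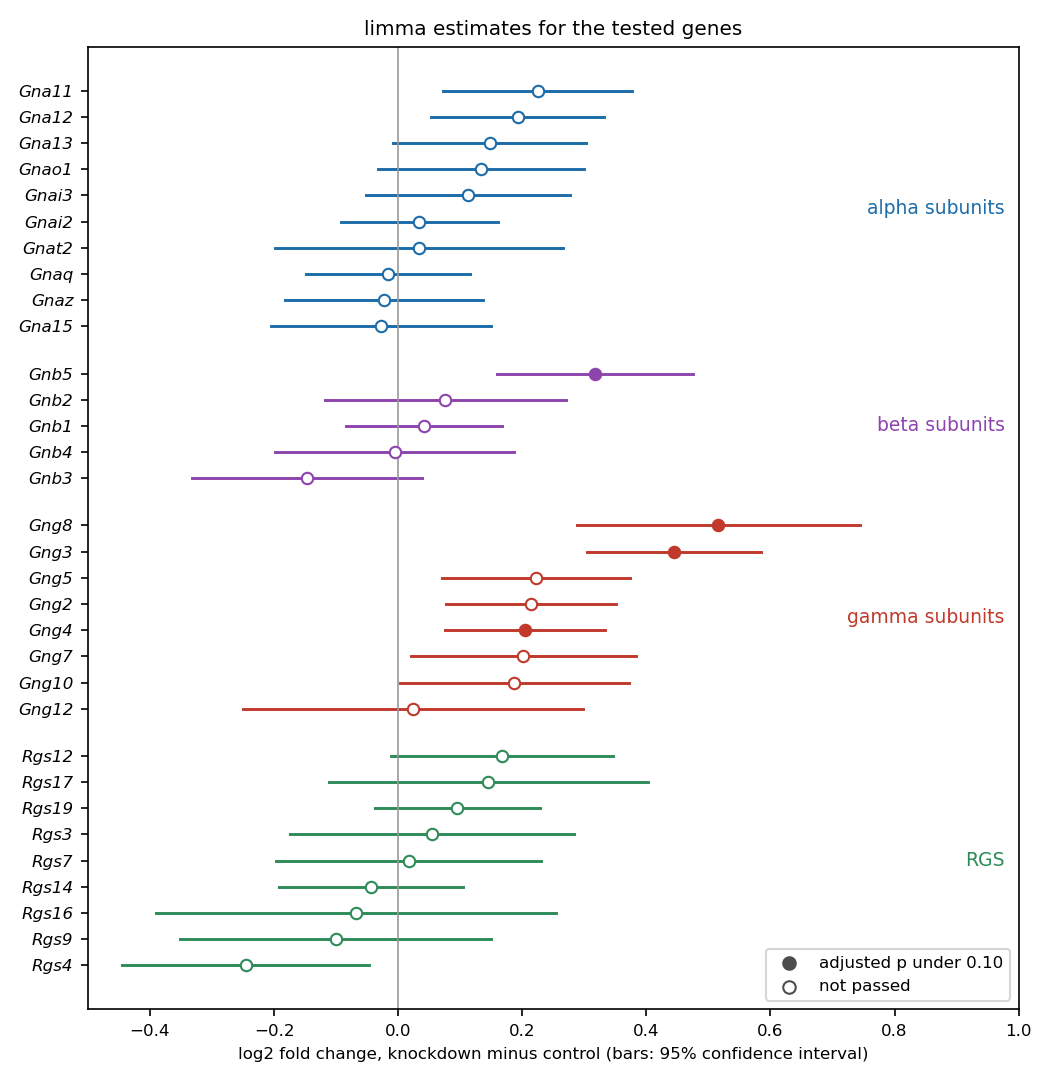
Log2 fold change, knockdown minus control (horizontal axis), with its 95% confidence interval (bars) for the 32 tested genes (vertical axis, by class); filled points passed 10% FDR by limma. The 4 filled points are Gnb5, Gng8, Gng3 and Gng4, and Gng8 at 0.52 lies farthest from 0.

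Replicate numbers mattered for the gamma genes. Samples of the same number deviated together across tested genes (r = 0.57, 0.32 and 0.23 for numbers 1, 2 and 3), and with the replicate number as a block 7 of the 8 gamma genes passed 10% FDR, all but Gng12. The limma adjusted p in that fit was 0.0576 for Gng2, 0.0552 for Gng5, 0.0566 for Gng7 and 0.0773 for Gng10. The same fit called 8.96% of all tested genes higher and 8.91% lower, so that more calls were also made elsewhere. In those 7 genes each knockdown array exceeded the control array of its own number, which held for 28.4% of all tested genes. For Gng8 these same-number differences were 0.48, 0.48 and 0.59, and for Gng3 they were 0.42, 0.48 and 0.44. For Gng12 they were -0.06, 0.30 and -0.17, positive in replicate 2 only.

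Among the beta genes Gnb5 rose and the other 4 did not pass. GNB5 is the divergent beta subunit that pairs with the R7 group of RGS proteins in place of a gamma subunit and keeps them stable. Gnb5 read 10.01, 9.94 and 9.92 in the controls and 10.38, 10.21 and 10.22 in the knockdowns. All knockdown arrays exceeded all controls, and knockdown replicate 1 was the highest. Gnb5 rose by 0.32 (95% confidence interval 0.16 to 0.48), or 1.25-fold, with an SE of 0.068 and a limma adjusted p of 0.0550. The call was lost without a filter on low values (limma adjusted p = 0.134) and with a variance filter (0.211).

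The other beta genes are listed by their values. Gnb1 read 13.94, 13.94 and 13.95 in the controls and 14.01, 13.98 and 13.96 in the knockdowns. The groups did not overlap, but the difference of 0.04 (95% confidence interval -0.08 to 0.17) was small and near the top of the array's range. Gnb2 was at 0.08 (-0.12 to 0.27) and Gnb4 at -0.006 (-0.20 to 0.19). Gnb3, the beta gene of cone photoreceptors and taste cells, had the lowest difference of the class at -0.15 (95% confidence interval -0.33 to 0.04, limma adjusted p = 0.379), with overlapping groups.

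The R7 partners of GNB5 did not pass. Rgs7 read 10.79, 10.70 and 10.75 in the controls and 10.92, 10.57 and 10.79 in the knockdowns, with a difference of 0.02 (95% confidence interval -0.20 to 0.23). Rgs9 was at -0.10 (-0.35 to 0.15), and Rgs6 and Rgs11 lay below the median on all 6 arrays. Gpr158, a receptor that recruits RGS7 to the membrane, fell. Its values were 8.61, 8.94 and 8.69 in the controls and 8.26, 8.06 and 8.42 in the knockdowns, without overlap and with a difference of -0.50 (SE 0.11, limma adjusted p = 0.0650). The other tested R7 anchor genes, Rgs9bp (-0.01) and Gpr179 (-0.11), did not pass.

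Among the RGS genes the largest difference was in Rgs4, a small RGS protein of the R4 group that acts on Gi/o and Gq/11 alpha subunits and is abundant in neurons. Rgs4 read 8.91, 8.90 and 8.91 in the controls and 8.72, 8.48 and 8.79 in the knockdowns. The controls were nearly identical (SD 0.0062, n = 3) and the knockdowns scattered below them (SD 0.16, n = 3), the lowest being knockdown replicate 2. The difference was -0.25 (SE 0.086, 95% confidence interval -0.44 to -0.05), which missed 10% FDR by limma (adjusted p = 0.172) and passed with the replicate block (adjusted p = 0.0711). Rgs4 was the only tested RGS gene whose knockdown arrays lay wholly below the controls, against 11.7% of all tested genes, and Rgs19 was the only RGS gene with them wholly above.

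Rgs19, of the RZ group that prefers Gi and Gz subunits, read 11.11, 11.02 and 11.06 in the controls and 11.15, 11.14 and 11.19 in the knockdowns, a difference of 0.09 (95% confidence interval -0.04 to 0.23). Rgs17, of the same group, was at 0.15 (-0.11 to 0.40). Rgs12 and Rgs14, RGS proteins that also carry a GoLoco motif, were at 0.17 (-0.01 to 0.35) and -0.04 (-0.19 to 0.10). Rgs3 was at 0.06, or 0.09 on its other probe set. Rgs16, an inducible R4 gene, read 7.77, 7.78 and 7.89 in the controls and 7.58, 8.10 and 7.55 in the knockdowns. As for Gng12, knockdown replicate 2 was above every control and the other knockdown arrays were below every control. The difference of -0.07 carried the widest interval of the tested RGS genes (-0.39 to 0.25), and it passed 10% FDR as lower once knockdown replicate 2 was left out.

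Of the 20 RGS genes 11 lay below the array-wide median on all 6 arrays and were not tested. They were Rgs1, Rgs2, Rgs5, Rgs8, Rgs13, Rgs18 and Rgs21 of the R4 group, Rgs6 and Rgs11 of the R7 group, Rgs20 of the RZ group and Rgs22. The R4 group therefore had 3 tested members of 10. There were 11 RGS genes on chromosome 1, which holds no other member. Within 100 kb of each other on GRCm38.p6, Rgs8 and Rgs16 are 42683 bases apart and Rgs5 and Rgs4 are 45663 bases apart, with the first gene below the median and the second above it. Rgs13 and Rgs1 are 67296 bases apart, and both lay below the median.

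Of the tested alpha genes, which fall into the Gi/o, Gq/11 and G12/13 families, none passed 10% FDR. A positive difference was seen in 7 of 10 (median 0.074), against 55.5% of all tested genes. Gna11, of the Gq/11 group that activates phospholipase C beta, read 11.10, 11.07 and 11.22 in the controls and 11.30, 11.36 and 11.40 in the knockdowns. The groups did not overlap and the difference was 0.22 (SE 0.066, limma adjusted p = 0.116), which passed with the replicate block (adjusted p = 0.0470). Gna12, of the G12/13 group, read 11.997, 12.12 and 12.10 in the controls and 12.26, 12.28 and 12.25 in the knockdowns. The knockdown arrays were tightly grouped above the controls, with a difference of 0.19 (SE 0.060, limma adjusted p = 0.135, or adjusted p = 0.0696 with the replicate block).

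Gna13, the close relative of Gna12, was at 0.15 (95% confidence interval -0.01 to 0.30) and Gnao1, the main alpha subunit of neuronal membranes, at 0.13 (-0.03 to 0.30), both without overlap between the groups. The inhibitory genes Gnai3 and Gnai2 were at 0.11 (-0.05 to 0.28) and 0.03 (-0.09 to 0.16). Gnaz (-0.02), Gnaq (-0.02), Gna15 (-0.03) and the cone transducin gene Gnat2 (0.03) had intervals that included 0 on both sides. Gna14, Gnai1, Gnal, the only member of the Gs family here, and the rod transducin gene Gnat1 lay below the median on all 6 arrays and were not tested.

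Several alpha genes are adjacent in the genome. On chromosome 10 Gna15 (81502313 to 81524447) and Gna11 (81528724 to 81545162) are 4276 bases apart, and their differences were -0.03 and 0.22. Gnat2 and Gnai3 on chromosome 3 are 5842 bases apart, with 0.03 and 0.11, and Gnaq and Gna14 on chromosome 19 are 47146 bases apart, of which Gna14 was not tested. Whether the differences of such neighbours differ from each other was not tested.

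The wider pathway was described through lists of receptors, effectors and regulators. Of 126 list genes on the array, 65 were tested, 2 were higher, 6 were lower and 57 did not pass, 12.3% called against 6.67% of all tested genes. Their median was -0.02, against 0.09 for the 32 members. The lists were also chosen with earlier results of these data known, so these shares are descriptions and not tests. Of 19 tested receptor genes, 16 had a negative difference, against 5082 of all 11424 tested genes. The 4 that fell were all on the list of receptors coupled to the stimulatory G protein.

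Of the 6 tested receptors of that list, 4 fell and 2 did not pass, against 3.88% of all tested genes called lower. Their median was -0.27, against 0.017 for all tested genes. Crhr1, the receptor for corticotropin-releasing hormone, read 10.07, 9.92 and 9.76 in the controls and 9.46, 9.46 and 9.33 in the knockdowns, and fell by 0.50 on the log2 scale (SE 0.090, limma adjusted p = 0.0364). Adcyap1r1, the receptor for the neuropeptide PACAP, read 12.35, 12.46 and 12.35 against 11.99, 12.07 and 12.12 and fell by 0.33 (SE 0.065, limma adjusted p = 0.0452). Neither gene's groups overlapped. Glp1r, the receptor for the incretin GLP-1, fell by 0.29 (SE 0.073) and the serotonin receptor gene Htr6 by 0.22 (SE 0.060). Ptger4 (-0.26, limma adjusted p = 0.141) and Drd1 (-0.12) did not pass, though Ptger4 passed with the replicate block (adjusted p = 0.05004).

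The receptors coupled to Gi/o gave 0 calls among 8 tested, with 7 negative differences and a median of -0.13. The muscarinic receptor gene Chrm4 had the lowest (-0.26, SE 0.077, limma adjusted p = 0.113), followed by the somatostatin receptor gene Sstr2 (-0.22, SE 0.069, limma adjusted p = 0.135). Both passed with the replicate block (adjusted p = 0.0356 and 0.0484). The receptors coupled to Gq/11 gave 0 calls among 5, with a median of -0.02, and the bradykinin receptor gene Bdkrb2 (-0.19, limma adjusted p = 0.140) passed with the replicate block (adjusted p = 0.0785). Many listed receptors were below the array-wide median, since 56 were on the array and 37 were not tested.

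**Figure D3:**
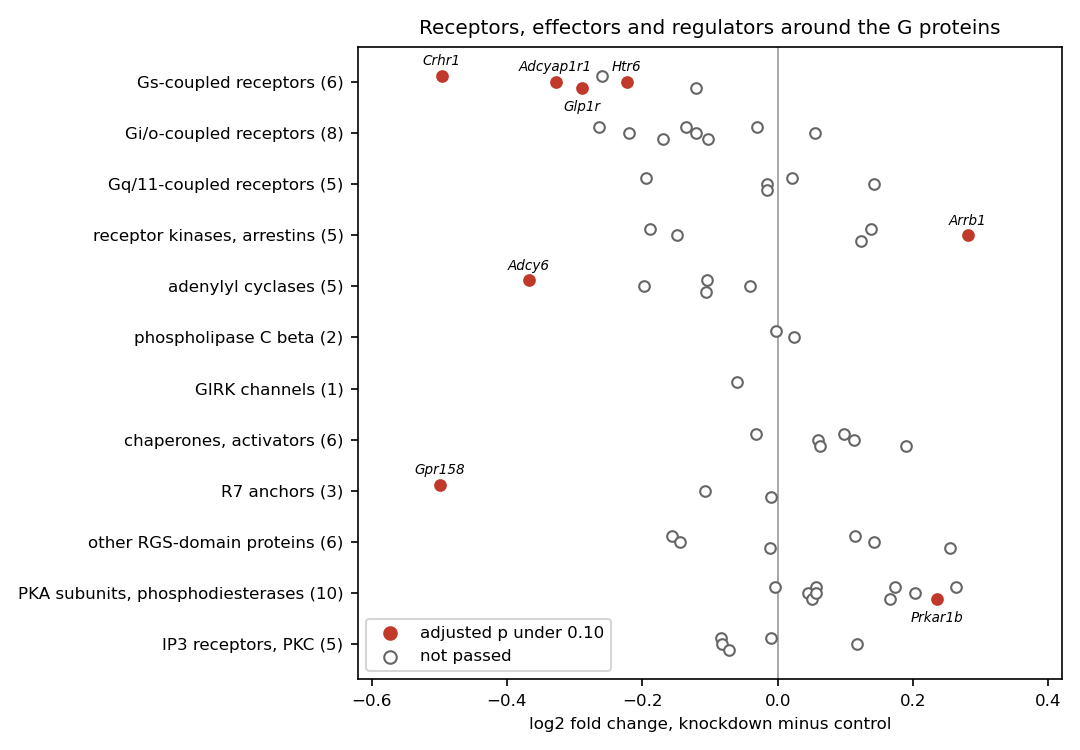
Log2 fold change, knockdown minus control (horizontal axis), of tested genes on the pathway lists drawn (vertical axis, with the number tested in brackets); filled points passed 10% FDR by limma and are named. All 6 tested receptors on the Gs list and all 5 tested adenylyl cyclases lie to the left of 0.

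All 5 tested adenylyl cyclase genes, whose products make cyclic AMP, had negative differences, and 1 fell. Of all 11424 tested genes 5082 had a negative difference and 3.88% were called lower. Adcy6 read 10.99, 11.25 and 11.15 in the controls and 10.64, 10.85 and 10.81 in the knockdowns, without overlap, and fell by 0.37 (SE 0.089, limma adjusted p = 0.0741). Downstream of cyclic AMP the regulatory subunit gene of protein kinase A Prkar1b rose by 0.24 (SE 0.063, limma adjusted p = 0.0944). A positive difference was found in 9 of the 10 tested protein kinase A and phosphodiesterase genes, against 55.5% of all tested genes. With the replicate block 4 of the 10 passed as higher, against 8.96% of all tested genes in that fit. These were Prkar1b (limma adjusted p = 0.0359), Pde1c (0.0325), Pde4b (0.0760) and Prkar2b (0.0863). Arrb1, the arrestin that uncouples activated receptors, rose by 0.28 (SE 0.059, limma adjusted p = 0.0508), from 11.19, 11.08 and 11.11 in the controls to 11.41, 11.42 and 11.39 in the knockdowns. The receptor kinase gene Grk3 was at -0.19 and did not pass (limma adjusted p = 0.132), though it passed with the replicate block (adjusted p = 0.0647).

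The tested phospholipase C beta and potassium channel genes did not pass. Plcb3 and Plcb4 were at -0.002 and 0.02, and of the 4 potassium channel genes gated by beta-gamma only Kcnj9 was tested (-0.06). The chaperone genes that fold G protein subunits, Ric8a, Ric8b and Pdcl, did not pass, at -0.03, 0.10 and 0.11. The 6 other genes with an RGS domain also gave 0 calls, from -0.16 in Snx25 to 0.25 in Akap10.

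The calls depended on single arrays. Without control replicate 2 or without knockdown replicate 3 no member passed 10% FDR, and in these fits 51 and 56 of the 11424 genes passed in all. Gng3 kept its call when any of the other 4 arrays was left out (adjusted p from 0.0230 to 0.112 over all 6), Gng8 and Gnb5 only without knockdown replicate 1 or 2 (up to 0.180 and 0.218), and Gng4 only without knockdown replicate 2 (up to 0.329). The estimates moved less than the calls, at 0.41 to 0.48 for Gng3, 0.44 to 0.61 for Gng8, 0.26 to 0.35 for Gnb5 and 0.19 to 0.22 for Gng4. Of the 8 pathway genes Crhr1 kept its call in 3 of the 6, Adcyap1r1, Arrb1 and Glp1r in 2 and Adcy6, Gpr158, Htr6 and Prkar1b in 1, and each of the 8 lost it without control replicate 2 or knockdown replicate 3.

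**Figure D4:**
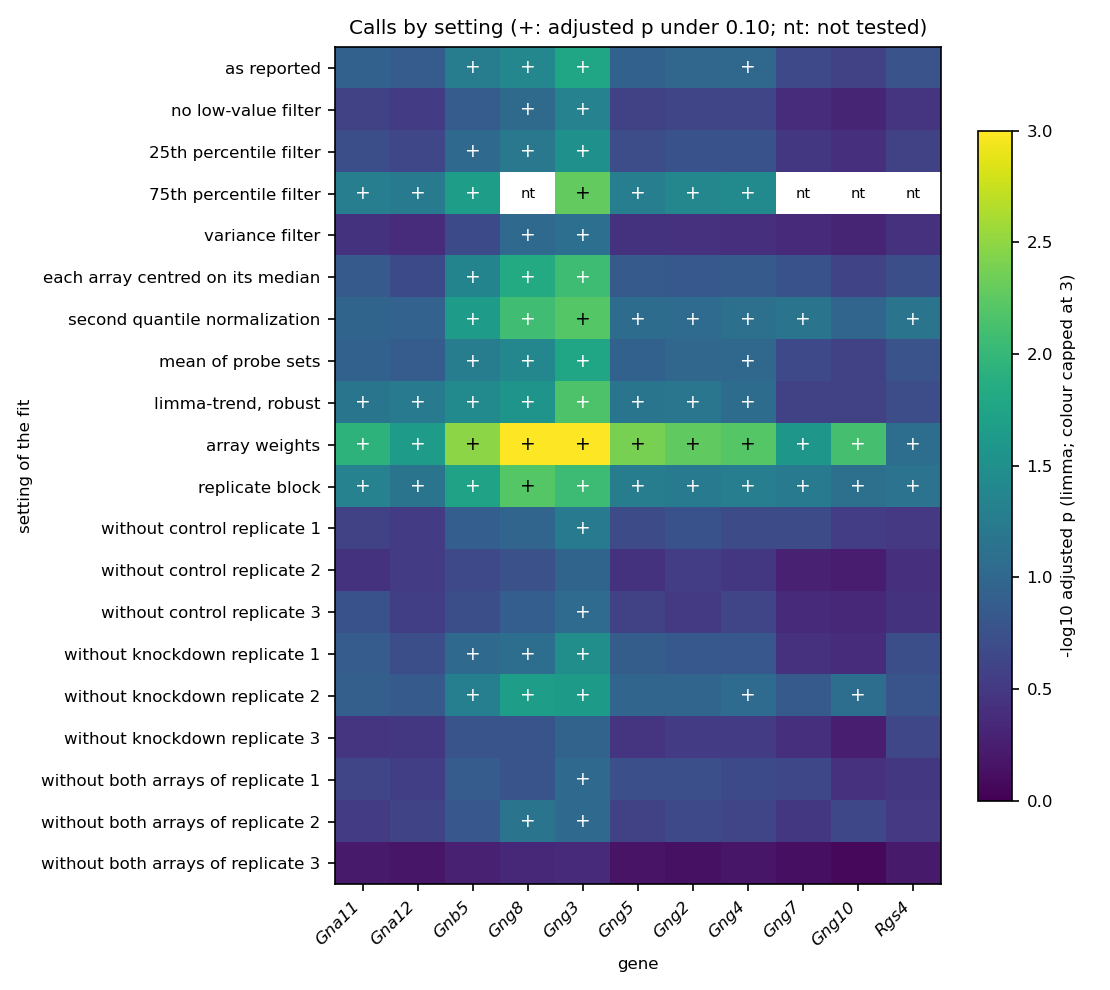
Limma adjusted p as -log10 (colour) for the 11 members with an unadjusted p under 0.05 (horizontal axis) in the reported fit and its alternatives (vertical axis); a plus marks an adjusted p under 0.10 and nt a gene that was not tested. Gng3 carries a plus in all fits except those without control replicate 2, without knockdown replicate 3 and without both arrays of replicate 3.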

How the data were processed

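The table that the authors deposited holds log2 expression per probe set of a whole-transcript Affymetrix mouse gene array, labelled from 200 ng of RNA per sample. Its methods name RMA, with background correction and quantile normalization, and limma for testing. Tool versions and the annotation build are not given in any source used here. Forcing equal distributions hides changes in total RNA, and small signals are compressed. There were 35556 probe sets, with array medians from 7.49 to 7.59. The 21789 probe sets with 1 gene symbol were named through the platform annotation, and 21698 of them matched RefSeq on GRCm38.p6. The number of arrays limits the precision.

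Knockdown was compared with control on all 6 arrays by limma 3.58.1 (R 4.3.3), with lmFit and eBayes, two-sided, and Benjamini-Hochberg adjustment over the 11424 genes that passed the filter on low values, at the study's 10% FDR. The fit was tested on simulated data with independent noise on each array, so shared deviations of same-numbered samples were not covered. Members past 10% FDR or under an unadjusted p of 0.05, and pathway genes past 10% FDR, were named by rule, and other genes were named after their values were seen. Members and lists were chosen with earlier results of these data known. The deviations of same-numbered samples from their group means correlated at 0.57, 0.32 and 0.23, all above 0.1, which is why a number was treated as a pair. No label says what a number marks, and control replicate 3 with knockdown replicate 2 also exceeded 0.1 (0.178). Alternatives were another filter, normalization, probe set rule, variance model, array weights, the replicate block and leaving out arrays. The values of 1 effector list are not reported here, though its genes are in the pathway counts.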

Additional observations from a re-analysis of the deposited data

How the results depend on the processing

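All 4 member calls kept a positive difference under every alternative in which the gene was tested, but the counts of calls at 10% FDR (4 members higher, 0 lower, 8 pathway genes, 762 of all genes as reported) moved. Without a filter on low values 245 genes passed in all, with 2 members higher, 0 beta genes, 1 pathway gene and a member median of 0.034. A 25th percentile filter gave 389 genes, 4 pathway genes and a median of 0.043, and a 75th percentile filter gave 1046 of 5982 genes and 7 of 19 tested members higher, 2 of them alpha genes, with Gng8 not tested. A variance filter gave 136 genes, 2 members higher, 0 beta genes and 1 pathway gene, and Pax6 (-0.38) lost its call. Centring each array on its median gave 715 genes and 3 members higher, without Gng4. A second quantile normalization gave 1383 genes, 7 members higher, 1 lower, 6 gamma, 1 RGS and 13 pathway genes. A mean-variance trend together with a robust prior gave 1054 genes and 8 members higher, with 2 alpha and 5 gamma genes. Array weights, which ran from 0.313 for knockdown replicate 2 to 5.38 for knockdown replicate 3, gave 4239 genes, 13 members higher, 2 lower, 3 alpha, 7 gamma, 4 RGS and 35 pathway genes. With the replicate block the pairing gave 2042 genes, 10 members higher, 1 lower, 2 alpha, 7 gamma, 1 RGS and 17 pathway genes.

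Leaving out 1 array gave 51 to 1285 genes, 0 to 5 members higher, 0 to 1 lower, 0 to 1 beta, 0 to 4 gamma, 0 to 1 RGS and 0 to 14 pathway genes, while Pax6 ran from -0.42 to -0.32 and kept its call only without knockdown replicate 1 or 2. The highest counts came without knockdown replicate 2 and the lowest without control replicate 2. Without both arrays of replicates 1, 2 and 3 the fits gave 140, 96 and 7 genes, 1, 2 and 0 members higher, 1, 2 and 0 gamma genes, 0 beta and 0 pathway genes each, and Pax6 at -0.42, -0.31 and -0.42 without a call. The causes were not tested. With 3 arrays a group, small differences and dim probe sets could not be resolved, and the outlier test was not applied to groups of 3.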
